A study of Mus musculus with 35 samples.

Results

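The genes described here are 8 mouse interferon-inducible GTPases. They are the guanylate-binding proteins (GBP) Gbp2, Gbp3, Gbp5 and Gbp7 and the immunity-related GTPases (IRG) Irgm1, Irgm2, Igtp and Iigp1. They were chosen by name, out of 19938 genes that the arrays measured with a transcript cluster (the probes that read 1 transcript unit) annotated to a single symbol. Gbp3, Gbp5, Gbp7, Irgm1 and Iigp1, 5 of the 8 genes, had such a cluster, 1 each, and all 5 passed the filter on low values in every comparison. Gbp2 was read only by a cluster annotated to Gbp2 and Gbp2b, and Irgm2 and Igtp by 1 cluster annotated to both. These 2 shared clusters are given beside the 5 genes, and the genes within a shared cluster cannot be told apart.

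GBPs and IRGs are GTPases of cell-autonomous immunity. Interferons switch on their genes, and the proteins gather on the vacuoles of intracellular bacteria and parasites and on bacterial membranes, where they help to break the compartment open and to alert inflammasomes. Among the IRGs, the regulators Irgm1, Irgm2 and Igtp (also called Irgm3) sit on membranes of the host and hold the effectors such as Iigp1 (also called Irga6) inactive there. Type 1 conventional dendritic cells (cDC1), specialists in cross-presenting antigen from dead cells to CD8 T cells, respond strongly to type I interferon.

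Gene expression was measured on 35 Affymetrix arrays of cDC1 sorted from mouse spleen. The arrays come in 4 sets, which the titles number 1, 2 and 3 for the Mycl mice and separate for the Mxd1 mice. Set 1 compared 4 arrays from mice with a GFP allele on both copies of Mycl (MyclGFP/GFP, Mycl KO) with 5 from heterozygous mice (MyclGFP/+, HET), at steady state, so that all mice of this set carried the GFP allele. Set 2 compared 5 arrays from Mycl KO mice (MyclGFP/GFP) with 5 from wild-type mice (Mycl+/+, WT), also at steady state. Set 3 compared 5 Mycl KO with 5 WT arrays after an intraperitoneal dose of 100 µg of poly IC (double-stranded RNA made in vitro, an inducer of interferon) given 5 h before the spleens were taken. The Mxd1 set compared 3 arrays labelled Mxd1-/- with 3 labelled Mxd1+/+, all 18 h after 100 µg of poly IC. Mycl is a transcription factor related to MYC that dendritic cells use, and Mxd1 is a MAX partner that represses MYC target genes. Ages, sexes and strains are not given in the labels. The labels call the arrays biological replicates without saying whether each is a different mouse, so the p-values measure the spread between these arrays.

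The letters in front of these genes are shown first because the members with a window share a sequence feature there. The members were chosen by name as interferon-inducible genes, and the feature is an element of the interferon response. Its count is therefore tied to the choice and is a description, not a test. RefSeq promoter windows (GRCm38.p6, 250 bases before to 50 after the annotated transcript start) were kept for 7 of the 8 members, with 2 starts for Gbp3. No window of Iigp1 was kept, so whether Iigp1 has a match is not given here. The core of the interferon-stimulated response element (ISRE, the letters GAAA, any 2 bases and GAAA again, on either strand) occurred in a window of all 7, against 3.44% of all 32851 windows and 3.99% of all 27025 genes in the table. The interferon-γ-activated site (GAS, TTCNNNGAA, which reads the same pattern on both strands) occurred in 4 of the 7, namely Gbp5, Gbp7, Irgm2 and Igtp, against 8.30% of all windows and 9.55% of all genes. A match describes letters and shows no binding. Both full windows below belong to Gbp5 and Irgm1, the genes with a cluster of their own that passed the test in set 2. The matches are in capitals, and the letters read 5′ to 3′ on the strand of the gene. They lie at chr3:142496684-142496983, plus strand, and chr11:48871371-48871670, minus strand. The ISRE core begins 165 bases before the start in Gbp5, between GAS matches that begin 245 and 52 bases before it, and 30 bases before the start in Irgm1, where 2 overlapping ISRE cores share their middle letters.
Gbp5: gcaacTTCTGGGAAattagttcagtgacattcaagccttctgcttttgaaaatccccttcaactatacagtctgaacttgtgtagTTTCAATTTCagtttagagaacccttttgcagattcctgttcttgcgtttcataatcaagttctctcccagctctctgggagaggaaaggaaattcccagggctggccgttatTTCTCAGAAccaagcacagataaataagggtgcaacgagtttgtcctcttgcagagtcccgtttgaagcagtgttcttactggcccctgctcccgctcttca
Irgm1: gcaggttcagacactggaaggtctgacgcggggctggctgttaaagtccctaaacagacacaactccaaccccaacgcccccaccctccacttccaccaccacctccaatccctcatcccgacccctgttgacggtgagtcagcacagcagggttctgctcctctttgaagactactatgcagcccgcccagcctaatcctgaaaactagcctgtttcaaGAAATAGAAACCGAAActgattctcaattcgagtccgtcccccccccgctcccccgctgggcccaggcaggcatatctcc

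For the other members with a kept window a stretch of 60 bases around the first ISRE core is enough to show the letters, again with the matches in capitals. Gbp2 lies at chr3:142620584-142620643, Gbp3 at chr3:142559979-142560038, Gbp7 at chr3:142530263-142530322, Irgm2 at chr11:58214893-58214952 and Igtp at chr11:58199502-58199561, all on the plus strand. The ISRE core begins 59 bases before the start in Gbp2, 45 in Gbp3, 53 in Gbp7, 64 in Irgm2 and 34 in Igtp. The 4 GBP genes carry it as TTTC repeats on the strand of the gene and the 3 IRG genes as GAAA repeats. The stretches of Irgm2 and Igtp, the pair that shares 1 array cluster, were identical at 58 of 60 bases, and in both a GAS match lies just before the ISRE core.
Gbp2: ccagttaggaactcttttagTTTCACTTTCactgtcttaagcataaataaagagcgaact
Gbp3: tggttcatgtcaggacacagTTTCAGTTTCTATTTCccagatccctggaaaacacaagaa
Gbp7: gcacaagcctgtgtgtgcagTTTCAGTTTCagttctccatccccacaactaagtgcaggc
Irgm2: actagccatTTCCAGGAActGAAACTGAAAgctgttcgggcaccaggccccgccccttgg
Igtp: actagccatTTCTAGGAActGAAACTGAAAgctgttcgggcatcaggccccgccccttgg

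**Figure D1:**
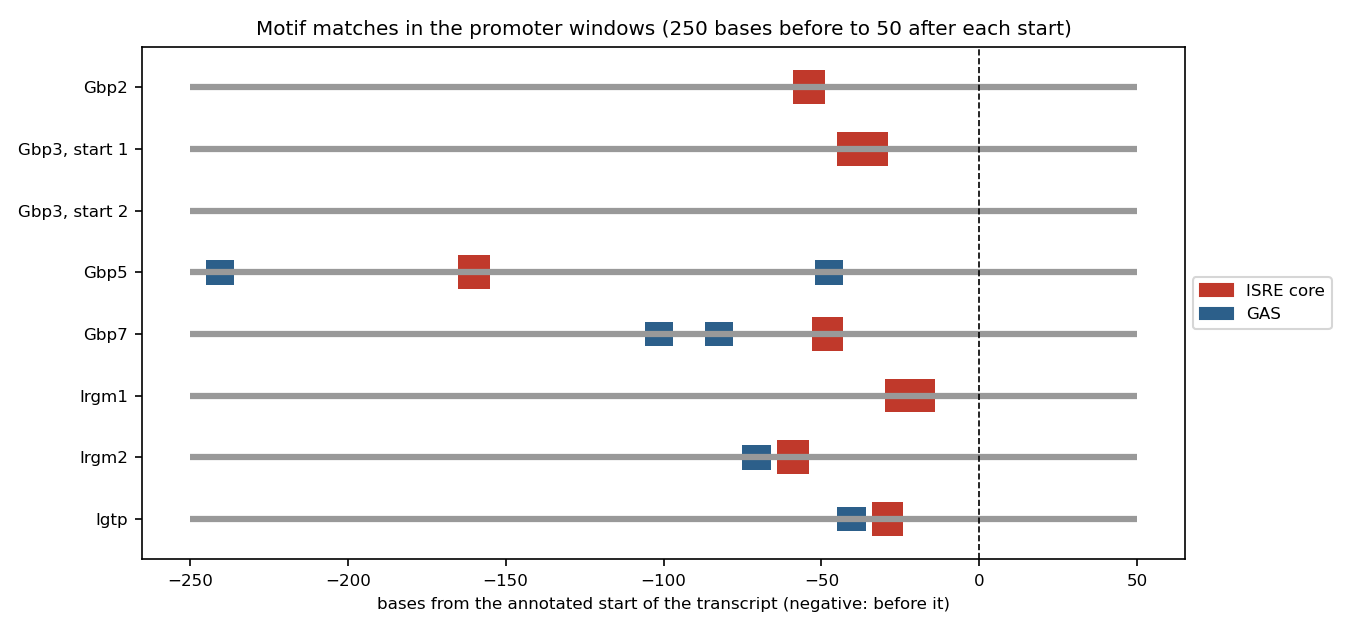
Positions of ISRE core (red) and GAS (blue) matches in the promoter windows of 7 members, in bases from the annotated transcript start (x axis, negative before the start), 1 line per start. Each of these 7 genes has an ISRE core before a start, and 4 of the 7 genes also have GAS matches. Iigp1 is not shown.

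Several arrays stood apart or went against their labels, which bears on the results below. All 12 cDC1 markers were above the filter level on every array. Within each group, 7 or 8 of 8 plasmacytoid dendritic cell markers were also above it on all arrays. The same held for 9 to 11 of 13 monocyte and macrophage markers and 5 to 7 of 9 markers of type 2 conventional dendritic cells (cDC2). Markers of B cells passed on all arrays of a group for 4 of 8, of neutrophils for 1 to 3 of 7, and of T and NK cells for 4 to 6 of 11. Passing this level therefore does not tell cDC1 from other cells. The mean level over the cDC1 markers was 10.25 to 11.78 across arrays. The highest array mean of any other marker list was 7.57, for plasmacytoid markers in set 1 KO. Mycl was low in the KO arrays of sets 1 and 2. In set 3 it was 5.52 to 6.14 on KO arrays 1, 2, 4 and 5 but 8.87 on KO array 3, near the 9.03 to 9.81 of the WT arrays. Mxd1 was 10.64, 10.49 and 10.41 on the arrays labelled Mxd1 KO and 11.03, 10.81 and 10.63 on the WT arrays, so its level does not bear out the label, and these are called the arrays labelled Mxd1 KO. In set 3, WT arrays 1 and 4 lay far below WT arrays 2, 3 and 5 for every one of the 5 genes and both shared clusters. For Gbp5 the 2 low arrays had 8.14 and 7.88, against 10.82, 11.00 and 11.08 on the others, and the interferon-induced regulator Usp18 had 8.51 and 9.76 against 11.18 to 11.44. The mean level of the 12 cDC1 markers was higher on these 2 arrays (10.81 and 10.96) than on the other WT arrays (10.29 to 10.45). Results of set 3 are therefore given with and without them.

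Levels are deposited log2 values from RMA, a method that corrects background, equalises the arrays of a run and summarises the probes of a cluster. The 4 sets were normalized separately, so levels of different sets were compared only as a description, on a common scale made by quantile normalization of the 35 arrays at once. Poly IC treatment and the set cannot be told apart. On that common scale Gbp5, which promotes inflammasome assembly, had its highest mean in the set 3 KO arrays, 11.01 ± 0.27 (SD, n = 5). It was 9.85 ± 0.12 on the arrays labelled Mxd1 KO and 10.16 ± 0.33 in Mxd1 WT (n = 3 each). In resting cells it was 8.09 ± 0.24 in set 2 KO (n = 5), 7.40 ± 0.40 in set 2 WT (n = 5), 7.82 ± 0.18 in set 1 KO (n = 4) and 7.41 ± 0.25 in set 1 HET (n = 5). The set 3 WT mean, 9.99 ± 1.55, mixes 2 low arrays with 3 high ones. Every array taken 18 h after poly IC lay above every resting array for Gbp5.

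In all 5 genes and both shared clusters the set 3 KO arrays had the highest mean of the 8 groups on the common scale. The set 3 WT mean there includes the low arrays 1 and 4. On the deposited scale WT arrays 2, 3 and 5 averaged 10.97 for Gbp5, 7.16 for Gbp7 and 8.90 for Irgm1. These means lay above the set 3 KO means of 10.85, 7.05 and 8.83. The KO mean stayed higher for Gbp3, Iigp1 and both shared clusters. The genes differed in where the 18 h arrays fell. Gbp7, a GBP linked to oxidative and autophagic defence, was 5.07 ± 0.17 on the arrays labelled Mxd1 KO and 5.19 ± 0.07 in Mxd1 WT, the lowest means of all groups, while it was 7.45 ± 0.40 in set 3 KO. Its resting means were 5.25 to 5.63, and single arrays of neighbouring groups overlapped. Iigp1 was 6.56 ± 0.36 on the arrays labelled Mxd1 KO and 6.53 ± 0.21 in Mxd1 WT, between its resting means of 5.18 to 5.46 and the 8.64 ± 0.27 of set 3 KO, and no 18 h array overlapped the set 1 KO arrays next below them. The cluster of Gbp2 and Gbp2b was 7.70 ± 0.17 on the arrays labelled Mxd1 KO and 8.10 ± 0.39 in Mxd1 WT, against 5.75 to 6.28 at rest and 9.18 ± 0.24 in set 3 KO. Gbp3, Irgm1 and the cluster of Irgm2 and Igtp also had both 18 h means between their resting means and that of set 3 KO. Neighbouring groups in these orders mostly shared values: in Irgm1, for example, each of the 4 resting groups overlapped the next.

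**Figure D2:**
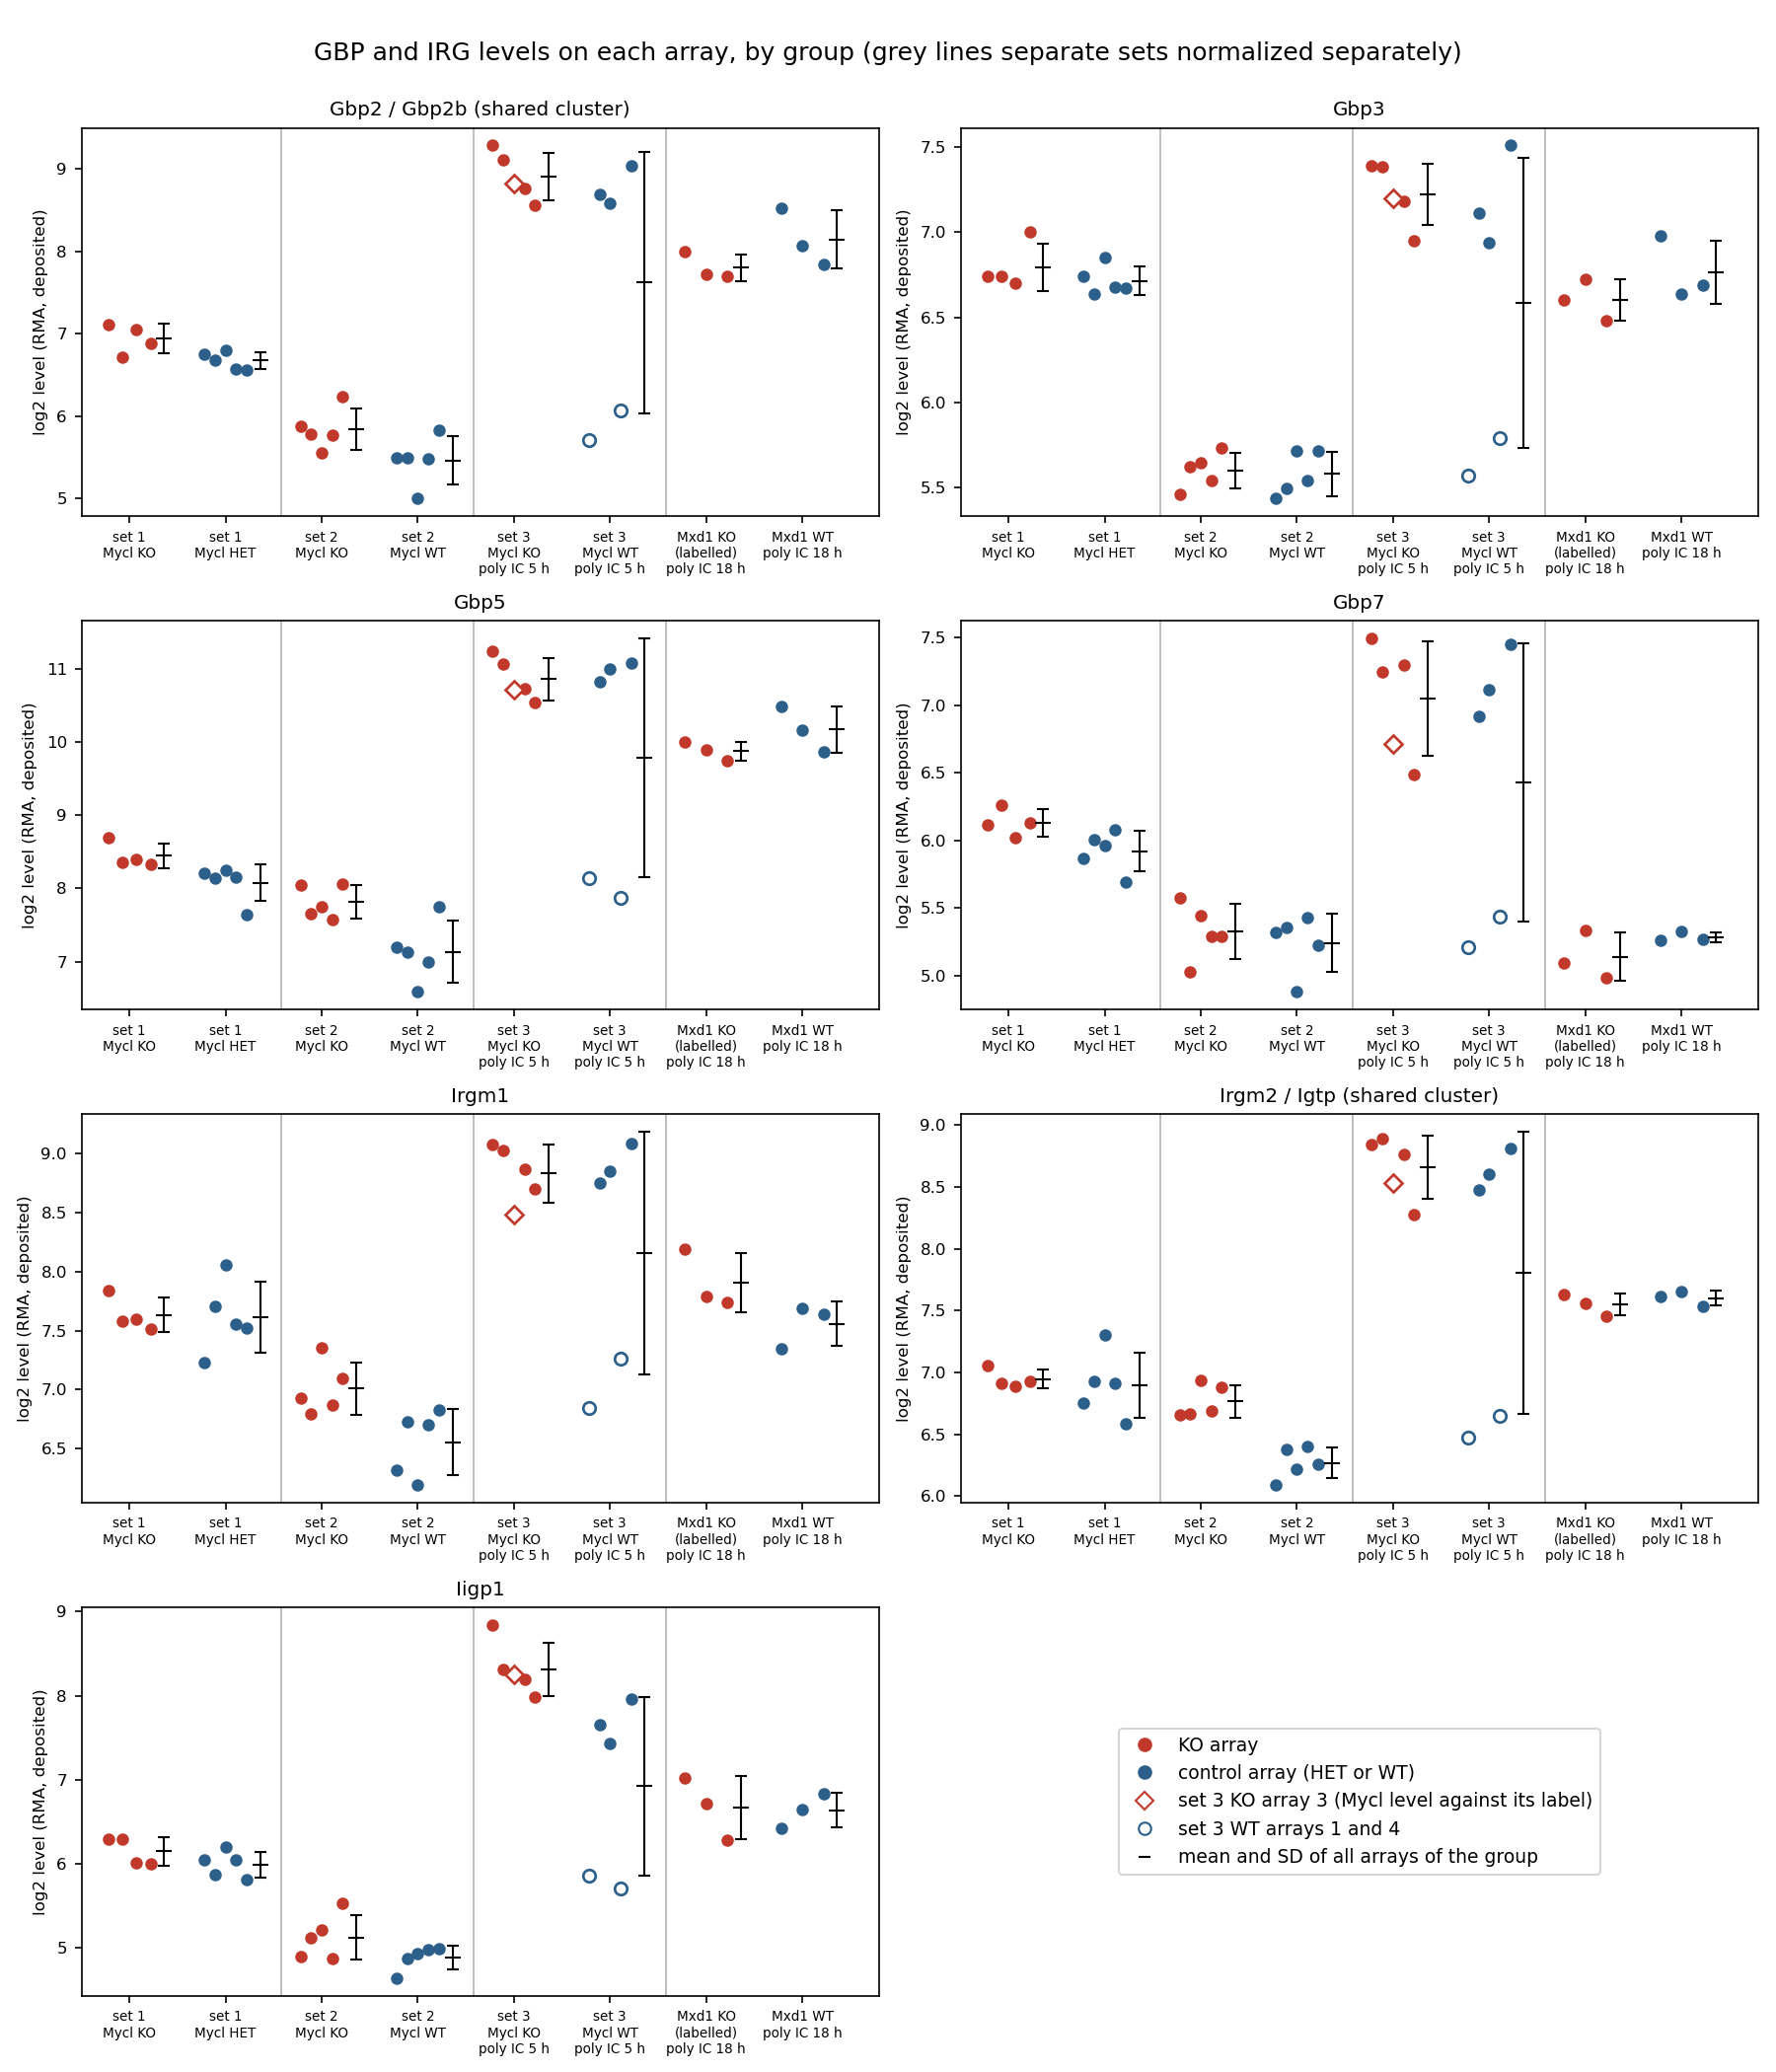
Deposited log2 level (y axis) of 5 GBP and IRG genes and 2 shared clusters on each of 35 arrays, in 8 groups, KO left of control within each set, with the mean and SD of each group in black. Open circles are set 3 WT arrays 1 and 4, which lie below the other WT arrays of set 3 in every panel, and the open diamond is set 3 KO array 3.

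In resting cells of set 2, several of these GTPases were higher in Mycl KO cells. Gbp5 rose 1.60-fold, Irgm1, a regulator of other IRGs and of autophagy, rose 1.37-fold, and the cluster of Irgm2 and Igtp rose 1.41-fold in KO over WT cells. Differences were tested with limma, p-values were adjusted by the method of Benjamini and Hochberg across every gene in the fit, and an adjusted p under 0.05 counted as passing. In set 2, 2 of the 5 genes with their own cluster passed, both upward. Of the 14012 genes tested in set 2, 6.14% passed in either direction. The log2 levels of Gbp5 were 8.04, 7.65, 7.75, 7.58 and 8.06 on the KO arrays and 7.20, 7.13, 6.59, 6.99 and 7.75 on the WT arrays. All KO values lay above 4 of the WT values, and the fifth WT array overlapped them. The difference was 0.68 ± 0.16 (log2, SE; limma, adjusted p = 0.0227). It did not pass without KO array 5 (adjusted p = 0.0637), WT array 1 (0.0512) or WT array 4 (0.0522), or in 1 fit of all 8 groups (0.464). That fit shares 1 spread per gene over all groups. The SD of Gbp5 was 1.63 in set 3 WT, against 0.22 in KO and 0.42 in WT arrays of set 2.

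Irgm1 had 6.93, 6.79, 7.35, 6.87 and 7.10 on the set 2 KO arrays and 6.32, 6.73, 6.19, 6.71 and 6.82 on the WT arrays. One KO array lay below the highest WT array and the remaining KO arrays lay above all WT arrays. The difference was 0.45 ± 0.13 (adjusted p = 0.0444 in limma), close to the threshold. Leaving out 1 array at a time ended the call for 8 of 10 arrays, all but KO array 2 and WT array 5, and the adjusted p ranged from 0.0245 to 0.117. It was 0.470 in 1 fit of all 8 groups.

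The cluster of Irgm2 and Igtp, further regulators of the IRG system, had 6.66, 6.66, 6.94, 6.69 and 6.88 on the set 2 KO arrays and 6.09, 6.38, 6.22, 6.40 and 6.26 on the WT arrays. All KO arrays lay above all WT arrays, as did 3.74% of the genes tested in set 2. The difference was 0.50 ± 0.08 (limma, adjusted p = 0.00235) and passed the test with each array left out in turn (adjusted p 0.00324 to 0.00887). The cluster of Gbp2 and Gbp2b, in which Gbp2 is a GBP that coats parasite vacuoles, had a difference of 0.38 ± 0.14 (limma, adjusted p = 0.106). Its values were 5.55 to 6.23 in KO and 5.00 to 5.82 in WT arrays. Gbp2b has a cluster of its own as well, which read 4.64 to 4.77 in KO and 4.63 to 4.83 in WT arrays of set 2. That cluster was at or above the filter level on 0 of 5 KO and 1 of 5 WT arrays. Its values therefore do not show which gene the shared cluster reads.

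Iigp1, the IRG effector, had 4.87 to 5.53 on the set 2 KO arrays and 4.64 to 4.98 on the WT arrays, a difference of 0.24 ± 0.11 (limma, adjusted p = 0.215). Gbp7 differed by 0.08 ± 0.11 and Gbp3 by 0.02 ± 0.07, with 95% confidence intervals of -0.14 to 0.31 and -0.13 to 0.17. The median difference of the 5 genes was 0.24, against 0.01 over all genes tested in set 2. In these sorted cells, a change in RNA per cell and a change in the cells that make up the sort cannot be told apart. Markers of other cells moved in part, where 6.14% of all genes tested in set 2 passed in either direction. Of cDC2 markers tested, 2 of 7 rose and 1 fell in set 2 KO cells, and 2 of 8 plasmacytoid dendritic cell markers rose and 1 fell. Of monocyte and macrophage markers 2 of 11 rose and 1 fell, of T and NK cell markers 1 of 7 rose, of B cell markers 1 of 4 fell, and of the cDC1 markers 3 of 12 rose and 1 fell. The mean plasmacytoid marker level was 6.66 to 6.94 on KO arrays and 6.59 to 6.71 on WT arrays, and the part of these markers in the GTPase result was not tested.

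In set 1, where the controls were heterozygous, none of the 5 genes passed the test. Of 14023 genes tested 0.0214% passed, which is 3 genes, while 1991 had an unadjusted p under 0.05. Gbp5 had 8.69, 8.36, 8.40 and 8.33 on the KO arrays and 8.21, 8.13, 8.25, 8.16 and 7.64 on the HET arrays. All KO arrays lay above all HET arrays, as in 1.74% of the genes tested in set 1. The difference was 0.37 ± 0.12 (limma, adjusted p = 0.246). Gbp7 differed by 0.21 ± 0.08 (adjusted p = 0.280 in limma), Iigp1 by 0.16 ± 0.09 and Gbp3 by 0.08 ± 0.07. Irgm1, one of the genes called in set 2, differed by 0.02 ± 0.14 here, with a 95% confidence interval of -0.28 to 0.32. The cluster of Irgm2 and Igtp differed by 0.05 ± 0.12 and the cluster of Gbp2 and Gbp2b by 0.27 ± 0.08 (limma, adjusted p = 0.241). Whether the KO differences of sets 1 and 2 differ from each other was not tested.

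With both resting sets in 1 fit, and the set as a block, Gbp5 was the single gene of the 5 that passed, among 4.66% of 14177 genes tested (299 higher and 361 lower, or 475 and 326 once all 35 arrays were quantile-normalized). It rose 1.45-fold, a log2 difference of 0.53 ± 0.12 (limma, adjusted p = 0.00920). The call was kept with each of the 19 arrays left out, and was lost in 1 fit of all 8 groups (adjusted p = 0.516). Irgm1 differed by 0.25 ± 0.11 (adjusted p = 0.200 in limma), Iigp1 by 0.20 ± 0.08 (0.138), Gbp7 by 0.14 ± 0.07 and Gbp3 by 0.05 ± 0.05. The shared clusters passed, at 0.29 ± 0.08 for Irgm2 and Igtp (limma, adjusted p = 0.0477) and 0.33 ± 0.09 for Gbp2 and Gbp2b (0.0313). With 1 array left out in turn, the first passed in 4 of 19 cases and the second in 12 of 19. This fit contains the arrays of set 2 and is no independent support for the differences there.

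**Figure D3:**
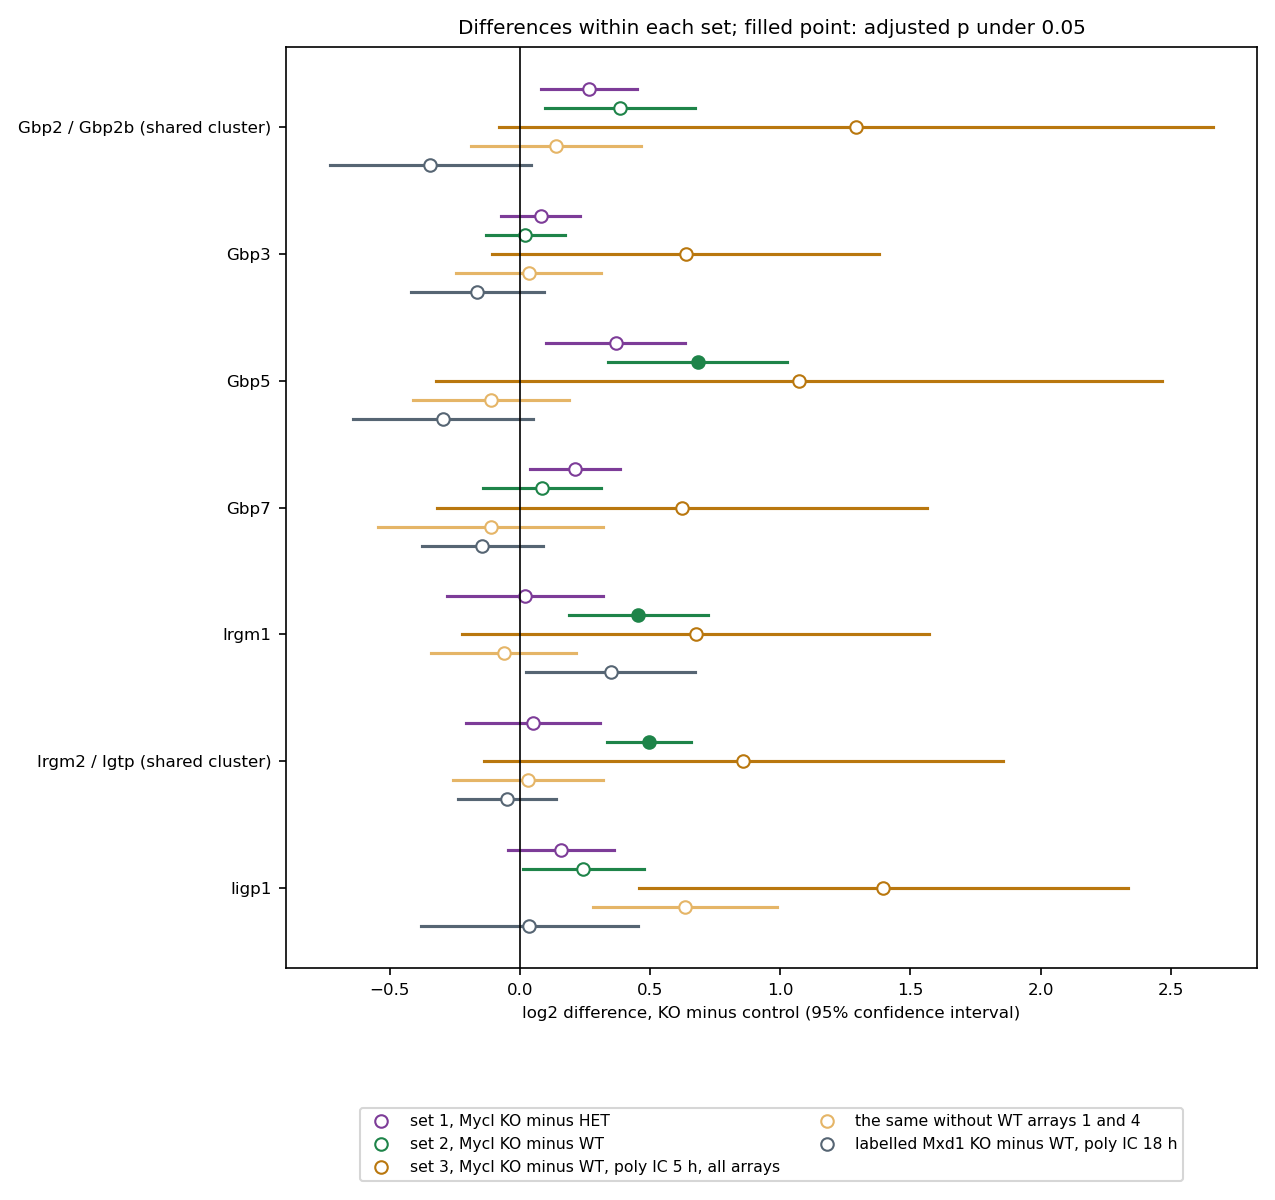
Log2 difference of KO minus control (x axis) with its 95% confidence interval for 5 GBP and IRG genes and 2 shared clusters, in the 4 sets and in set 3 without WT arrays 1 and 4. Filled points passed the test, and these are Gbp5, Irgm1 and the cluster of Irgm2 and Igtp in set 2, while the set 3 intervals over all arrays are the widest of the plot in every row.

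In set 3, 5 h after poly IC, all 5 genes had higher means in KO than in WT arrays, and none passed the test. No gene of the 14033 tested passed in limma (0%), with 1992 at an unadjusted p under 0.05 and 863 higher and 1047 lower in 1 fit of all 8 groups. The largest difference was that of Iigp1. It had 8.84, 8.32, 8.25, 8.19 and 7.99 on the KO arrays and 5.85, 7.65, 7.43, 5.70 and 7.96 on the WT arrays. Every KO array lay above every WT array, as in 1.91% of the genes tested in set 3, with KO array 5 just above WT array 5. The difference was 1.40 ± 0.43, or 2.63-fold (limma, adjusted p = 0.288). In 1 fit of all 8 groups, Iigp1 (adjusted p = 0.00214) and Gbp3 (0.0398) passed. That fit shares 1 spread per gene over all groups and so understates the spread of set 3 WT. The SD there was 1.06 for Iigp1 and 0.85 for Gbp3, against 0.32 and 0.18 in set 3 KO.

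Leaving out the low WT arrays 1 and 4 could not bring overlap for Iigp1, whose KO arrays already lay above all WT arrays. In 3.95% of the genes tested, all KO arrays lay above the remaining WT arrays. The Iigp1 difference without those arrays was 0.63 ± 0.16, or 1.55-fold (limma, adjusted p = 0.192, unadjusted p = 0.00193). In that fit 0.0784% of 14033 genes passed, 10 higher and 1 lower. Leaving out KO array 3 as well, the array with a WT-like Mycl level, gave 0.65 ± 0.18 (limma, adjusted p = 0.184). The Iigp1 difference was above 0 in all alternatives run for set 3. Those that only left out arrays could not have turned its sign, because every KO array lay above every WT array.

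The differences of the other members in set 3 shrank to near 0 without the low WT arrays. Those arrays were left out after these genes were seen to be lowest on them, so a smaller difference follows from that choice. Gbp5 had 11.24, 11.05, 10.71, 10.72 and 10.54 on the KO arrays and 8.14, 10.82, 11.00, 7.88 and 11.08 on the WT arrays. Its KO values lay around those of WT arrays 2, 3 and 5. The difference was 1.07 ± 0.63 over all arrays (limma, adjusted p = 0.419) and -0.11 ± 0.14 without WT arrays 1 and 4 (0.877), with a 95% confidence interval of -0.41 to 0.19. Irgm1 differed by 0.67 ± 0.41 over all arrays and by -0.06 ± 0.13 without the 2 arrays. Gbp7 differed by 0.62 ± 0.43 and -0.11 ± 0.20, and Gbp3 by 0.64 ± 0.34 and 0.03 ± 0.13, in the same order. The cluster of Gbp2 and Gbp2b differed by 1.29 ± 0.62 and 0.14 ± 0.15, and that of Irgm2 and Igtp by 0.86 ± 0.45 and 0.03 ± 0.13. The median difference of the 5 genes was 0.67 over all arrays and -0.06 without WT arrays 1 and 4, beside medians over all genes tested of 0.00 and 0.01.

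The KO difference after poly IC was set against that at rest in 1 model of sets 2 and 3, in which 0.0205% of 14665 genes passed and none of the 5. Iigp1 had the largest difference between the KO effects, 1.15 ± 0.46 (limma, adjusted p = 0.315), and 0.39 ± 0.21 without the low WT arrays (0.530). For Gbp5 it was 0.39 ± 0.69 over all arrays and -0.79 ± 0.24 without them (limma, adjusted p = 0.189), so its sign turned. The sign of Irgm1 turned likewise, with 0.22 ± 0.45 and -0.52 ± 0.20 (adjusted p = 0.322 in limma). The downward direction of these shifts follows from the choice of the arrays left out.

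At 18 h after poly IC, none of the 5 genes passed between the arrays labelled Mxd1 KO and WT, where 0.071% of 14080 genes passed and 2236 had an unadjusted p under 0.05. Irgm1 had 8.19, 7.79 and 7.74 on the arrays labelled Mxd1 KO and 7.34, 7.69 and 7.64 on the WT arrays. These values did not overlap, as in 11.8% of the genes tested in the Mxd1 set, and the difference was 0.35 ± 0.14 (limma, adjusted p = 0.290). Gbp5 had 9.99, 9.88 and 9.73 on the arrays labelled Mxd1 KO and 10.48, 10.16 and 9.86 on the WT arrays, with overlap and a difference of -0.30 ± 0.15 (limma, adjusted p = 0.377). Gbp3 differed by -0.16 ± 0.11, Gbp7 by -0.14 ± 0.10 and Iigp1 by 0.04 ± 0.18. The cluster of Gbp2 and Gbp2b differed by -0.34 ± 0.17 and that of Irgm2 and Igtp by -0.05 ± 0.08. Gbp7 was above the filter level on 1 of the 3 arrays labelled Mxd1 KO and on all 3 WT arrays.

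Other GBP and IRG genes and their relatives, among them the dynamin-like antiviral GTPases Mx1 and Mx2, were followed as a list of 22, of which 12 had a single-symbol cluster. In set 2, where 6.14% of all genes tested passed in either direction, 1 of 8 tested rose and none fell. This was Gm12250, an IRG effector also known as Irgb10, with 5.52, 5.54, 5.73, 5.28 and 5.82 on the KO arrays and 5.22, 5.14, 5.33, 5.36 and 5.20 on the WT arrays. KO array 4 lay among the WT arrays. The difference was 0.33 ± 0.09 (limma, adjusted p = 0.0390). The Gm12250 call held for 3 of 10 arrays left out and was lost without KO array 2, 3 or 5 or WT array 1, 2, 3 or 5 (adjusted p 0.0536 to 0.101) and in 1 fit of all 8 groups (0.685). In set 1 none of 9 passed, and the smallest p-values belonged to Gbp8, at 0.33 ± 0.12 (limma, adjusted p = 0.271), and Gbp4, at 0.31 ± 0.13 (0.322). In set 3 none of 10 passed. Gm4951, listed by RefSeq as the interferon-γ-inducible GTPase Ifgga2, had 7.72, 7.48, 7.57, 7.60 and 7.10 on the KO arrays and 5.41, 6.65, 6.72, 5.82 and 7.09 on the WT arrays. As for Iigp1 and 1.91% of the genes tested in set 3, every KO array lay above every WT array, though KO array 5 and WT array 5 differed by very little. The difference was 1.16 ± 0.29 (limma, adjusted p = 0.232), and 0.67 ± 0.13 without WT arrays 1 and 4 (0.0865). Gbp4 differed by -0.35 ± 0.14 without those 2 arrays (adjusted p = 0.454 in limma). None of 11 passed in the Mxd1 set, where the smallest p-values were those of Mx2, at 0.32 ± 0.12 (limma, adjusted p = 0.269), and Gbp2b, at 0.61 ± 0.24 (0.282).

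**Figure D4:**
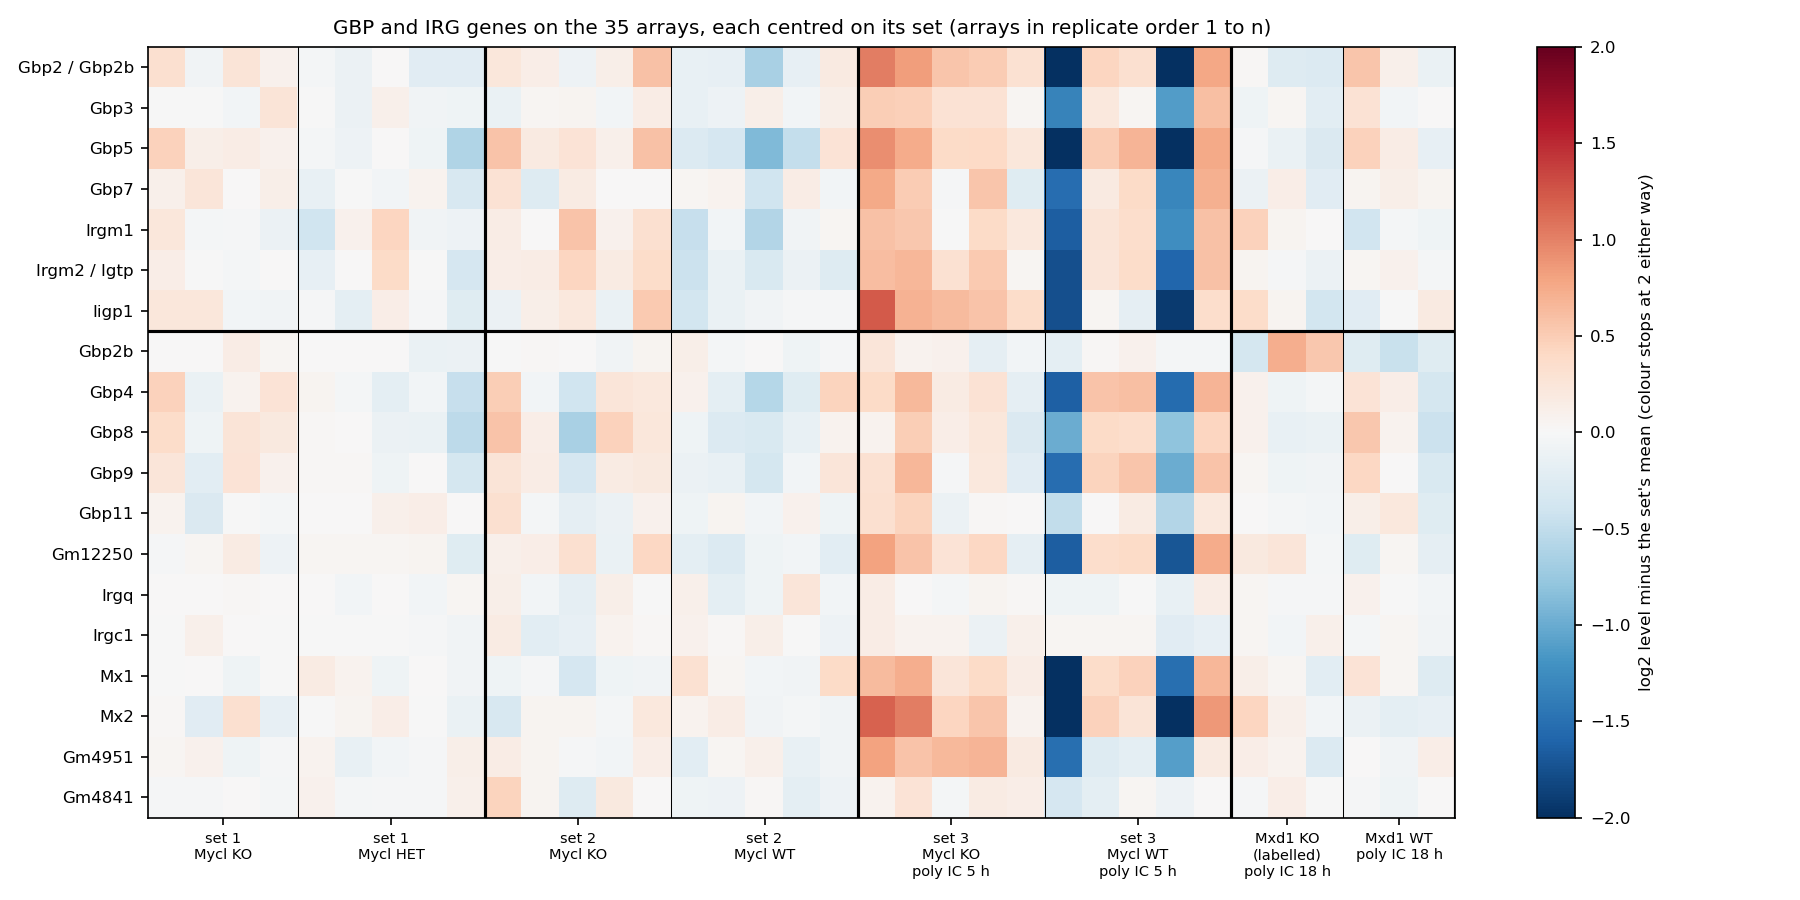
Log2 level minus the set's mean (colour, which stops at 2 in either direction) of the members (above the horizontal line) and 12 other GTPase genes on 35 arrays, grouped with KO left of control in each set. Set 3 WT arrays 1 and 4 are dark blue in all 7 member rows, and Iigp1 and Gm4951 are the rows whose 5 set 3 KO arrays all lie above all WT arrays, both by a narrow margin between array 5 of each group.

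Genes that receive and relay the interferon signal were followed as a second list, of 23 genes. In set 2, 5 of 21 tested rose and 1 fell in KO cells, where 6.14% of all genes tested passed in either direction. The 4 with the largest differences, all upward, are named here. Ifngr1, an interferon-γ receptor chain, was lower, with 11.40 to 11.60 on the KO arrays and 11.63 to 11.79 on the WT arrays. Irf7, the factor that amplifies type I interferon, rose by 0.43 ± 0.09 (limma, adjusted p = 0.0101) and Usp18, which damps receptor signalling, by 0.39 ± 0.07 (0.00698). Stat2, a subunit of the complex that reads the ISRE, rose by 0.34 ± 0.06 (limma, adjusted p = 0.00780). Ifnar2, a type I interferon receptor chain, rose by 0.29 ± 0.06 (0.0180), a call lost without WT array 1 (0.0517). The median difference of this list was 0.10, against 0.01 over all genes tested in set 2. With both resting sets in 1 fit, where 4.66% of all genes tested passed, 2 of 21 passed, both upward. These were Usp18 at 0.29 ± 0.05 (limma, adjusted p = 0.00176) and Irf8 at 0.15 ± 0.04 (0.0396). The Usp18 call held with each of 19 arrays left out, and the Irf8 call with 8 of 19 (adjusted p up to 0.0831), lost without set 1 KO array 1 or 2, HET array 2, set 2 KO array 2, 3, 4 or 5, or WT array 1, 2, 3 or 4. In 1 fit of all 8 groups all of these calls were lost, with adjusted p = 0.456 for Irf7, 0.611 for Usp18, 0.567 for Stat2 and 0.0818 for Ifnar2 in set 2 and 0.679 for Usp18 and 0.328 for Irf8 over both resting sets.

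In set 3 none of 22 passed. Ifnb1, which encodes interferon-β, had 7.13, 8.09, 7.30, 7.19 and 8.31 on the KO arrays and 5.43, 6.28, 6.15, 5.67 and 6.80 on the WT arrays. The groups did not overlap, as in 1.91% of the genes tested in set 3 with all KO arrays higher. Its difference was 1.54 ± 0.30 (limma, adjusted p = 0.153), and 1.19 ± 0.25 without WT arrays 1 and 4 (0.0925). Socs3, a feedback inhibitor, differed by 0.45 ± 0.11 and by 0.37 ± 0.08 without those arrays (limma, adjusted p = 0.229 and 0.119). In the set 1 and Mxd1 comparisons none of 21 passed.

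A further list held proteins that act with the GTPases, namely the autophagy conjugation proteins that guide them to vacuoles and the inflammasome components downstream. In set 2, where 6.14% of all genes tested passed in either direction, 1 of 22 tested fell and none rose. This was Il18, a cytokine released by inflammasomes, with 7.26, 7.08, 7.53, 7.07 and 7.16 on the KO arrays and 7.66, 7.76, 7.52, 7.60 and 7.38 on the WT arrays. The difference was -0.36 ± 0.09 (limma, adjusted p = 0.0290), and -0.34 ± 0.08 over both resting sets (0.0198), where 4.66% of all genes tested passed. The set 2 call of Il18 held for 4 of 10 arrays left out and was lost without KO array 2, 4 or 5 or WT array 1, 2 or 4 (adjusted p 0.0569 to 0.0792), while that over both resting sets held with each of 19 arrays left out. In 1 fit of all 8 groups Il18 had adjusted p = 0.206 in set 2 and 0.138 over both resting sets. None of 22 passed in set 1, set 3 or the Mxd1 set. In set 3 the smallest p-values were those of Gabarap, at 0.28 ± 0.09, and Casp1, at 0.53 ± 0.17 (limma, adjusted p = 0.288 and 0.292). In the Mxd1 set Casp4, a caspase that senses lipopolysaccharide, had the smallest p, at -1.04 ± 0.16 (limma, adjusted p = 0.0956).

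The genes with the most similar pattern were found by correlating each gene, centred on its set mean over 35 arrays, with the mean of the 5 genes. The members themselves correlated with that mean at r = 0.93 to 0.96. Outside them the 10 highest were Znfx1 and Parp14 (r = 0.96 each), Anxa4, Car13, Gm12250, Rtp4, Tmem106a, Slfn8 and Stxbp3, down to Ifi206 (r = 0.95). Znfx1 is an antiviral RNA helicase, Rtp4 an interferon-induced RNA-binding protein, Parp14 an ADP-ribosyltransferase, Slfn8 a schlafen protein and Ifi206 a DNA-sensor relative. Gm12250 is the single one of the 10 from the GTPase lists. Without set 3 WT arrays 1 and 4, r was 0.58 to 0.75 for the 10 genes and 0.56 to 0.81 for the members, and 4 of the 10 genes were still among the highest 10. Arrays of a group share treatment and set, so these values describe the pattern and carry no test.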

How the data were processed

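The deposited table holds log2 values of 35556 transcript clusters on 35 arrays. The authors made them with RMA in Affymetrix Expression Console, per the submitters' processing notes (version not given in the sources used here). The 4 sets had been normalized separately, as shown by array medians and by values shared between arrays. Spike-ins are mentioned in the series design, but no spike-in features were found, so all values are relative to the other transcripts of an array. Clusters were named through the platform annotation: 21789 had 1 symbol, 1621 several, and 12146 are unnamed here. For genes with several clusters the one with the highest mean was used. Genes at or above the 30th percentile of their array in enough arrays to fill the smaller group were tested with limma 3.58.1 in R 4.3.3, two-sided, only the groups compared in each fit, with p-values adjusted by Benjamini-Hochberg across every gene in the fit, at 0.05. Shared clusters came from the same fit with clusters of several symbols kept. The script was tested on simulated data.

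Genes named are the members, listed genes past the test (at most 4 per list and comparison, otherwise the 2 with the smallest p), the 10 genes most like the members, Mycl and Mxd1. Per-array values of other GTPases were chosen for print after they were seen. The members and lists were chosen with earlier results of these data known. Replicate numbers did not pair the arrays: correlations of same-numbered arrays ran from -0.40 to 0.35. Alternatives covered the filter, all 8 groups in 1 fit, array weights, normalization, clusters per gene, eBayes settings, a replicate block and left-out arrays; those of set 3 without WT arrays 1 and 4 or KO array 3 were added after seeing the data.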

Additional observations from a re-analysis of the deposited data

Results flagged for a closer look

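A closer look is due where 1 array of a group of 4 or 5 lay far from the others, judged by its gap to the nearest array over the group's range (Dixon's critical value). Of 204 groups tested, 16 did so, and chance gives about 1 in 20. Among the members, Gbp3 was 7.0 on set 1 KO array 4, against 6.70 to 6.74 on the other KO arrays, and Gbp5 was 7.64 on set 1 HET array 5, against 8.13 to 8.25. HET array 5 also stood apart for Gm12250 (5.96, others 6.24 to 6.25), Gbp8 (8.28, others 8.67 to 8.83), Tyk2 (9.52, others 9.68 to 9.71), Mycl (9.65, others 9.85 to 9.93) and Gabarap (12.41, others 12.02 to 12.13). Without that array the set 1 difference of Gbp5 was 0.26 (limma, adjusted p = 0.246). In set 3, Mycl was 8.87 on KO array 3, against 5.52 to 6.14, and Irf7 was 10.57 on WT array 1, against 12.33 to 12.99. Gabarap was 11.78 on set 3 KO array 5 (others 11.42 to 11.49) and Atg7 7.33 on set 3 KO array 2 (others 7.20 to 7.23). In set 1, KO array 2 had Atg12 at 7.84 (others 7.69 to 7.71) and Nlrp3 at 10.19 (others 10.01), KO array 3 had Mx1 at 7.74 (others 7.83 to 7.84), and HET array 3 had Stat2 at 9.70 (others 9.40 to 9.46). Mx1 was 6.79 on set 2 KO array 3, against 7.02 to 7.09.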

How the results depend on the processing

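The number of the 5 genes past the test stayed at 0 in set 1, the Mxd1 set and the contrast of KO effects under all alternatives run. In set 2 it was 2, and 1 with no filter or with eBayes trend and robust settings, 0 in 1 fit of all 8 groups, and 0 to 2 with 1 array left out. In set 3 it was 0 and 2 in 1 fit of all 8 groups; over both resting sets it was 1 and 0 in that fit. With the replicate block it was 1 in set 2 (Gbp5, adjusted p = 0.00321; Irgm1, 0.0572), 1 over both resting sets and 0 elsewhere. Of all genes, 530 were called higher and 331 lower in set 2, 299 and 361 over both resting sets, 0 and 3 in set 1, none in set 3, 4 and 6 in the Mxd1 set and 2 and 1 in the contrast of KO effects. In 1 fit of all 8 groups these were 237 and 121 in set 2, 58 and 61 over both resting sets, 863 and 1047 in set 3, 148 and 87 in the Mxd1 set and 103 and 78 in the contrast. That fit shares 1 spread per gene over groups of unlike spread, so calls gained or lost in it carry that limit. Array weights gave 41 and 100 in set 1, 56 and 16 in set 3, 10 and 8 in the Mxd1 set and 50 and 24 in the contrast. The contrast gave 30 and 11 without set 3 WT arrays 1 and 4, and 39 and 15 without KO array 3 too, where set 3 gave 39 and 24. With 1 array left out, totals were 408 to 1012 in set 2, 438 to 866 over both resting sets, 3 to 568 in the Mxd1 set, and at most 7 in set 1, 2 in set 3 and 30 in the contrast. Signs turned for small differences. In set 1, Irgm1 was -0.0044 with the replicate block and -0.0782 to 0.13 with 1 array left out, and the Irgm2 and Igtp cluster -0.029 to 0.15. In set 2, left-out arrays gave -0.0157 to 0.0556 for Gbp3 and -0.0051 to 0.16 for Gbp7; in the Mxd1 set, -0.14 to 0.23 for Iigp1. Without set 3 WT arrays 1 and 4, set 3 differences were -0.1118 for Gbp5, -0.113 for Gbp7 and -0.0637 for Irgm1, and without KO array 3 too, -0.0755 and -0.0294 for Gbp5 and Gbp7. In the contrast of KO effects these 2 alternatives gave -0.7943 and -0.7581 for Gbp5, -0.1979 and -0.1143 for Gbp7, and -0.5182 and -0.4308 for Irgm1; array weights gave -0.5222 for Gbp5 and -0.2862 for Irgm1, and left-out arrays -0.0881 to 0.71 and -0.109 to 0.45. Group sizes of 3 to 5 arrays limit the precision of every value.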
